A study of Bos taurus with 36 samples.

Results

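Splicing factors were followed in the liver of dairy cows before and after infusion of lipopolysaccharide (LPS) into the udder. The members were the probe sets annotated to a single gene whose symbol begins with SNRP, SF3A, SF3B, SRSF, HNRNP or PRPF, or with LSM and a number. This rule found 93 probe sets of 63 genes, out of the 24128 probe sets of the Affymetrix Bovine Genome Array, 13318 of which name a single gene (9156 genes in all). They form 6 families: SNRP with 9 probe sets of 8 genes, SF3 with 14 of 9, SRSF with 14 of 9, HNRNP with 27 of 16, PRPF with 16 of 10 and LSM with 13 of 11. A probe set is the group of short probes that reads 1 transcript, and 21 genes have more than 1. The symbols also bring in LSM proteins that are known for other work in RNA metabolism, such as LSM10, LSM12 and LSM14A.

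Introns are removed from pre-mRNA by the spliceosome, which is built on each intron from small nuclear ribonucleoproteins (snRNPs) and many further proteins. The SNRP proteins are the protein part of the snRNPs, and the SF3A and SF3B complexes belong to the snRNP that takes hold of the branch site. PRPF proteins build the tri-snRNP and the catalytic core, and LSM proteins form rings on the 3' end of small RNAs. SRSF proteins bind exons and as a rule favour their use, whereas hnRNP proteins coat nascent RNA and often act against them. In the liver, the acute phase response to LPS is known for large and rapid changes in mRNA output.

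Biopsies came from 8 healthy primiparous Holstein-Friesian cows in early lactation (9 to 12 weeks after calving). Every cow received 200 μg *E. coli* LPS into the right front gland of the udder and saline into the left front gland, and each hour was compared with the mean of all 8 cows at -22 h. The 36 arrays cover the hours -22, 9 and 48 with all 8 cows, and the hours 3, 6 and 12 with cows 1, 3, 7 and 8. At 3, 6 and 12 h the change is therefore not a within-cow difference: 4 cows are set against a reference that also holds the other 4. The paper also describes a control study of cows given saline alone, from which no arrays were made. It reports that the biopsy itself changed neither clinical measures nor the expression of some selected genes, which it does not name. Without arrays of such cows, the effect of LPS and that of the hour or of repeated biopsies cannot be told apart here. A biopsy is bulk tissue, in which more RNA per cell and more cells of a type cannot be told apart.

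The values are log2 levels made by the authors with GCRMA, and the medians of the arrays lay between 4.15 and 4.38. Changes are differences of log2 levels against -22 h from limma with 1 mean per hour, and a Benjamini-Hochberg adjusted p below 0.05 over all probe sets was called a change. Levels are compared only within a probe set. There were 2 arrays that stood apart from those of their hour: over the members, the -22 h array of cow 1 lay 0.18 above the median of its hour (63 of 93 members above it) and the 48 h array of cow 2 lay 0.12 above (71 of 93), whereas the other arrays lay between -0.05 and 0.03. The -22 h array of cow 7 stood apart over the brighter probe sets as a whole, with a median deviation of -0.18 and the largest median absolute deviation of the 36 arrays (0.293), but lay at -0.03 over the members. Without it, in a fit added after the data were seen, 73 members were higher and 3 lower at 9 h. Shares of all probe sets in that fit are not given here. These counts therefore do not show whether the members stood above all probe sets there. The tissue was liver by its markers, with ALB, the gene of serum albumin, at a mean of 16.14 at -22 h. Neutrophil markers moved with the hours: their summed level over 7 genes lay between 7.40 and 8.51 at -22 h, between 12.4 and 15.0 at 9 h and between 9.76 and 12.0 at 48 h, and 6 of their 9 probe sets were higher at 9 h, led by S100A8 and S100A9, while MMP9 and ITGAM, also neutrophil markers, stayed at low levels with changes of 0.11 and 0.15. The summed macrophage markers (8 genes) lay between 13.3 and 13.8 at -22 h and between 13.0 and 13.7 at 9 h, with 4 of 9 probe sets lower. Hepatocyte markers (10 genes) lay between 18.1 and 18.4 and then between 18.0 and 18.1, with 14 of 28 probe sets lower and 2 higher. Endothelial markers (9 genes) lay between 10.6 and 11.8 at -22 h and between 10.0 and 10.6 at 9 h, ranges that just do not overlap, with 8 of 15 probe sets lower and 2 higher, and changes of -1.57 for ENG, -1.47 for TEK and -1.24 for STAB1. Of 5 cholangiocyte probe sets 2 were lower and 1 higher at 9 h, and EPCAM changed by -2.06. Of 6 probe sets for proliferating cells 0 were called by limma at 9 h, and their sums lay between 8.54 and 9.18 at -22 h and between 8.66 and 9.28 at 9 h. The part of these cell types in the changes of the splicing factors was not tested.

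As a group the splicing factors were up regulated at 6, 9 and 12 h, and at 48 h their median change was near 0. At 9 h, 72 of the 93 probe sets were higher than at -22 h and 3 were lower, while 32.0% of all probe sets were higher and 22.6% were lower. The members' median change at 9 h was 0.65 on the log2 scale (1.57-fold), and that of all probe sets was 0.03. Within single cows this median ran from 0.42 to 0.83 at 9 h, so it was above 0 in all 8. In 46 members every 9 h array lay above every -22 h array (14.1% of all probe sets), and 1 member lay below throughout (13.2% of all). Splicing factors are brighter than most probe sets, and among those with a mean log2 level of at least 5 the counts at 9 h were 67 of 82 for members and 4500 of 11141 (40.4%) for all.

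Few members were called at 3 h, and most rises were called at 9 h. At 3 h, 3 members were higher and 1 lower, against 3.50% higher and 2.40% lower of all probe sets. At 6 h the counts were 50 higher and 11 lower (23.3% and 22.0% of all), and at 12 h they were 65 higher and 3 lower (22.2% and 18.9%). Median changes were 0.06 at 3 h, 0.35 at 6 h and 0.67 at 12 h. At least 2-fold changes among the called members numbered 26 at 6 h, 34 at 9 h, 34 at 12 h and 2 at 48 h, against 21.2%, 24.1%, 21.2% and 2.08% of all probe sets in either direction. Among probe sets with a mean level of at least 5 such changes were made by 29.3% of the members at 6 h and 40.2% at 9 h, and by 37.7% and 44.1% of all, so at this brightness they were no more frequent in the members. At 48 h, 19 members were higher and 18 lower (17.9% and 12.2% of all), with a median change of -0.00. Among probe sets with a mean level of at least 5, 19.5% of the members were higher and 22.0% lower at 48 h. For all probe sets of this brightness the shares were 11.4% and 22.3%. All of these comparisons share the -22 h arrays. With the 4 cows measured at all hours alone, -22 h included, 43, 58 and 57 members were higher at 6, 9 and 12 h, and 4 at 48 h. Shares of all probe sets with these 4 cows alone are not given here, and those above come from the fit with all arrays. The counts with 4 cows therefore do not show whether the members stood above all probe sets. The 3 h counts were 18 higher (4.90% of all) and 2 lower without the 2 arrays that stood apart, 6 higher without cow 1, 1 higher without cow 6, 7 or 8, and 0 lower without cow 7 or 8. Falls at 6 h numbered 7 without cow 1 and 6 without cow 3, 7 or 8, and those at 12 h numbered 1 without cow 8. Shares of all probe sets in the fits that leave out a cow are not given here either. Their counts cannot be set against all probe sets.

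**Figure D1:**
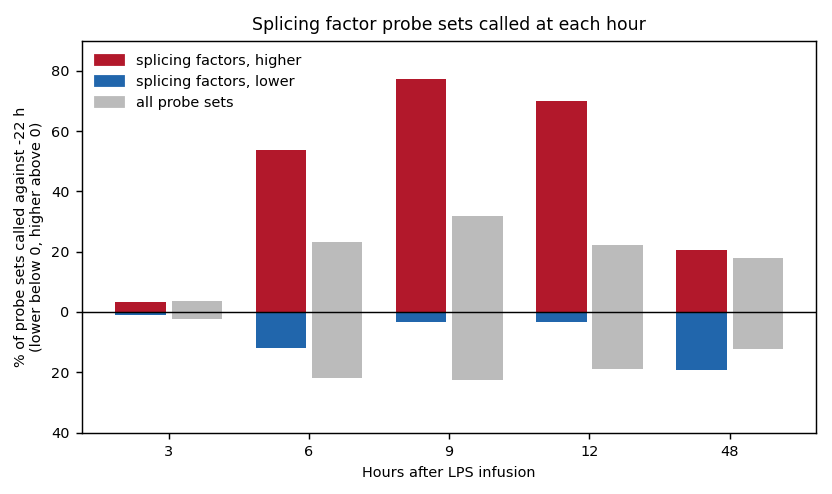
Share of the 93 splicing factor probe sets called higher (red) or lower (blue) than at -22 h by limma at each hour after LPS, beside the share of all 24128 probe sets (grey), in percent. Bars above 0 are higher and bars below 0 lower. The members' higher share passes that of all probe sets at 6, 9 and 12 h and is close to it at 3 and 48 h.

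Steps between successive hours were tested as well. Under the stricter threshold of the study's methods (Bonferroni-adjusted p below 0.01 over all probe sets), 43 of the 93 members were DE in 1 or more of the 5 steps, against 22.2% of all probe sets. None passed from -22 to 3 h, where 0.899% of all probe sets rose and 0.191% fell (4 members were called there by the Benjamini-Hochberg threshold). From 3 to 6 h 16 members rose and none fell (4.00% and 4.16% of all). From 6 to 9 h 7 rose and 2 fell (2.49% and 2.35% of all), and from 9 to 12 h 2 rose and 3 fell (1.50% and 1.28%). From 12 to 48 h 37 members fell and none rose, while 9.20% of all probe sets fell and 6.86% rose. Only the 4 cows with all hours gave arrays at 3, 6 and 12 h, and with these cows alone 27 members were DE. The share of 22.2% comes from the fit with all arrays, and the share of all probe sets with these cows alone is not given here. The count of 27 therefore does not show whether the members stood above all probe sets in that fit.

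**Figure D2:**
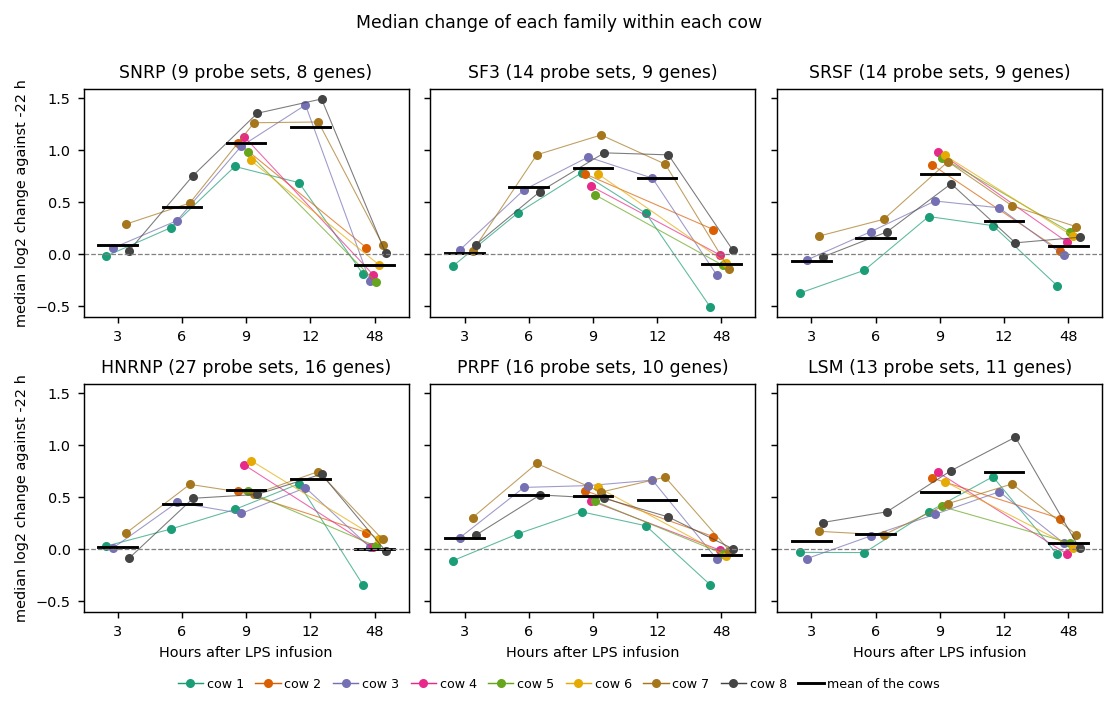
Median log2 change against -22 h over the probe sets of each family (y axis) within each cow, by hours after LPS (x axis). Points joined by thin lines are cows, black bars are the mean of the cows, and the dashed line is 0. At 9 h all cows lie above 0 in all 6 families, and SNRP reaches the highest values, at 12 h.

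Among the snRNP proteins, all 9 probe sets were higher at 9 h (32.0% of all probe sets) and 8 at 12 h (22.2%). The median changes of these proteins were 1.05 and 1.28. The 1 not called at 12 h was the dim second probe set of SNRPD3, with a mean level of 2.65. SNRPB encodes a protein of the Sm ring, the heptamer around which most snRNPs are built. Its levels at -22 h were 8.61 at the lowest, 8.96 at the median and 9.22 at the highest, and at 9 h they were 10.35, 10.51 and 10.70. At 6 h the 4 cows stood at 10.00, 10.32, 10.36 and 10.49, and at 12 h at 10.32, 10.57, 10.51 and 10.74. The hours did not overlap with -22 h, and the change at 12 h was 1.62 (SE 0.10, adjusted p 2.94e-15 by limma, higher in 4 of 4 cows).

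The other ring proteins followed. SNRPG rose from 10.10 to 10.45 over the arrays at -22 h to 11.59 to 12.21 at 9 h, and was highest at 12 h with a change of 1.74 (SE 0.12, adjusted p 8.61e-14, limma). SNRPD3 changed by 1.05 at 9 h and by 1.50 at 12 h (SE 0.12), and in cow 1 its level at -22 h, 11.75, was the highest of that hour. SNRPD2 changed by 0.33, 1.04 and 1.28 at 6, 9 and 12 h and was the only SNRP member called lower at 48 h (-0.26, 0 of 8 cows higher). The proteins particular to 1 snRNP differed in time. SNRPA1, of the U2 snRNP, changed by 0.14 at 6 h, where it was not called, and by 1.06 and 1.42 at 9 and 12 h, while its partner SNRPB2 had changed by 1.38 at 6 h and fell again between 9 and 12 h (-0.55, SE 0.08, Bonferroni-adjusted p 0.00405). SNRPA and SNRPC belong to the U1 snRNP. SNRPA stood at 7.41, 6.98, 7.25 and 7.31 at 6 h, in a range that overlaps with -22 h (6.94 to 7.40), with cow 1 just above it, and rose from 6 to 9 h (0.76, SE 0.09), whereas SNRPC had risen from 3 to 6 h (0.76, SE 0.11).

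**Figure D3:**
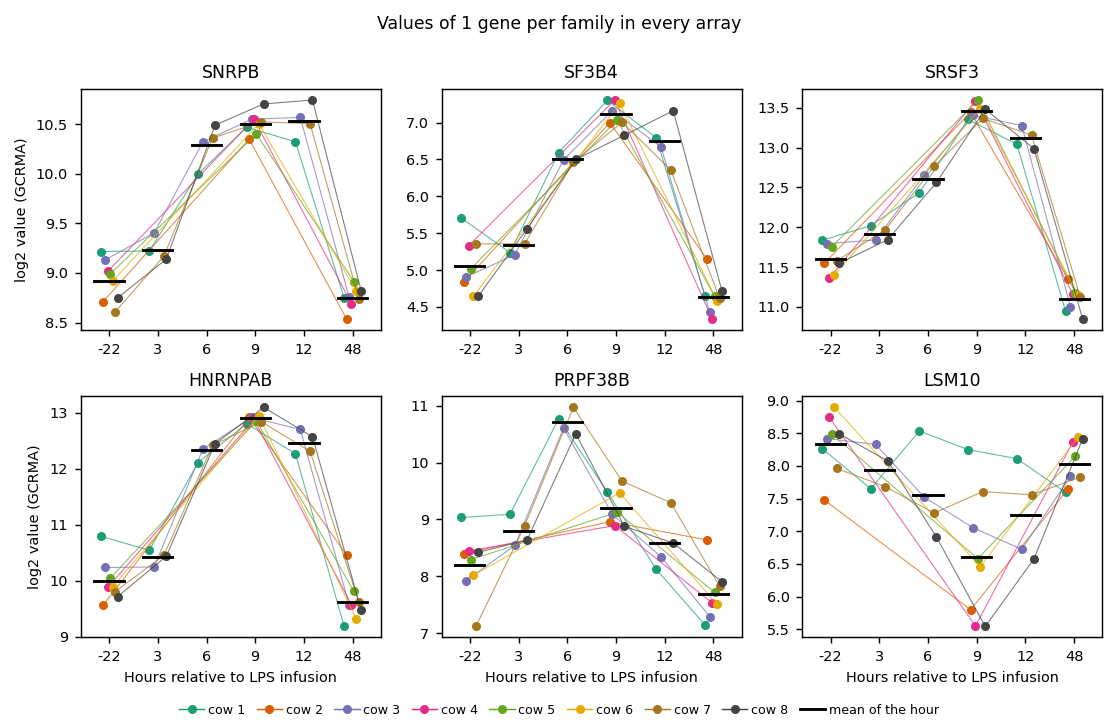
Log2 level (y axis) of 1 gene per family in every array, by hours relative to LPS infusion (x axis), read through the brightest probe set. Points are single cows joined by thin lines, and black bars are the mean of the hour. SNRPB, SF3B4, SRSF3 and HNRNPAB stand high from 6 to 12 h, PRPF38B is highest at 6 h in the 4 cows measured there, and LSM10 is lower at 9 h than at -22 h in 8 of 8 cows, cow 1 the least.

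Of the 14 SF3 probe sets 8 were higher and 2 lower at 6 h (23.3% and 22.0% of all probe sets). At 9 h the counts were 10 and 1 (32.0% and 22.6%), and at 12 h 11 and 1 (22.2% and 18.9%). SF3B4 is a subunit of SF3B that contacts the pre-mRNA upstream of the branch site. It had the largest change of the SF3 genes read through their brightest probe set. At -22 h it lay between 4.64 and 5.71 (median 4.96) and at 9 h between 6.83 and 7.31 (median 7.10), so every 9 h array lay above every -22 h array (change 2.06, SE 0.13, adjusted p 3.41e-15, limma). SF3B6, which sits at the branch site itself, changed by 1.73 (SE 0.13) at 9 h, and its second, dimmer probe set by 2.13 (SE 0.28). SF3A3 and SF3A2, subunits of SF3A, changed by 1.52 (SE 0.09) and 1.42 (SE 0.11), each higher in 8 of 8 cows, while a second probe set of SF3A2, at a mean level of 2.44, was called at no hour. SF3B3 changed by 1.10, 1.25 and 1.10 at 6, 9 and 12 h, and SF3B5 by 0.30, 0.65 and 1.14. SF3B2 was lower at 6 h (-0.22, SE 0.08, adjusted p 0.029), with levels of 8.29, 7.85, 8.03 and 7.90 that overlap with -22 h (8.08 to 8.36), and higher at 9 h (0.50, SE 0.07). Its 6 h call was lost without cow 3, 7 or 8, and without the 2 arrays that stood apart.

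The 4 probe sets of SF3B1, the large subunit that clamps the branch site helix, did not move together. The brightest, with a mean level of 11.07, lay between 10.60 and 10.91 at -22 h and between 11.11 and 11.48 at 9 h, a change of 0.48 (SE 0.06, adjusted p 1.1e-07, limma). The second brightest, with a mean level of 9.40, moved the other way, from 9.86 to 10.28 at -22 h to 8.78 to 9.27 at 9 h (-1.01, SE 0.09, adjusted p 1.82e-11). Both ranges were free of overlap, in opposite directions. The second brightest was also lower at 6 h (-0.92), 12 h (-1.04) and 48 h (-0.82), and 0 of 8 cows were higher at 48 h. The remaining pair changed by 0.65 and 0.26 at 9 h, neither called, and the dimmest was called at 12 h (1.04, adjusted p 0.0305). In both the -22 h array of cow 7 was far below the rest, at 4.89 and 7.80 where the other cows lay from 7.62 and from 8.83 upwards. Without cow 7 the 12 h change of the brightest probe set was 0.21 and no longer called. The files do not say which part of the transcript each probe set reads.

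**Figure D4:**
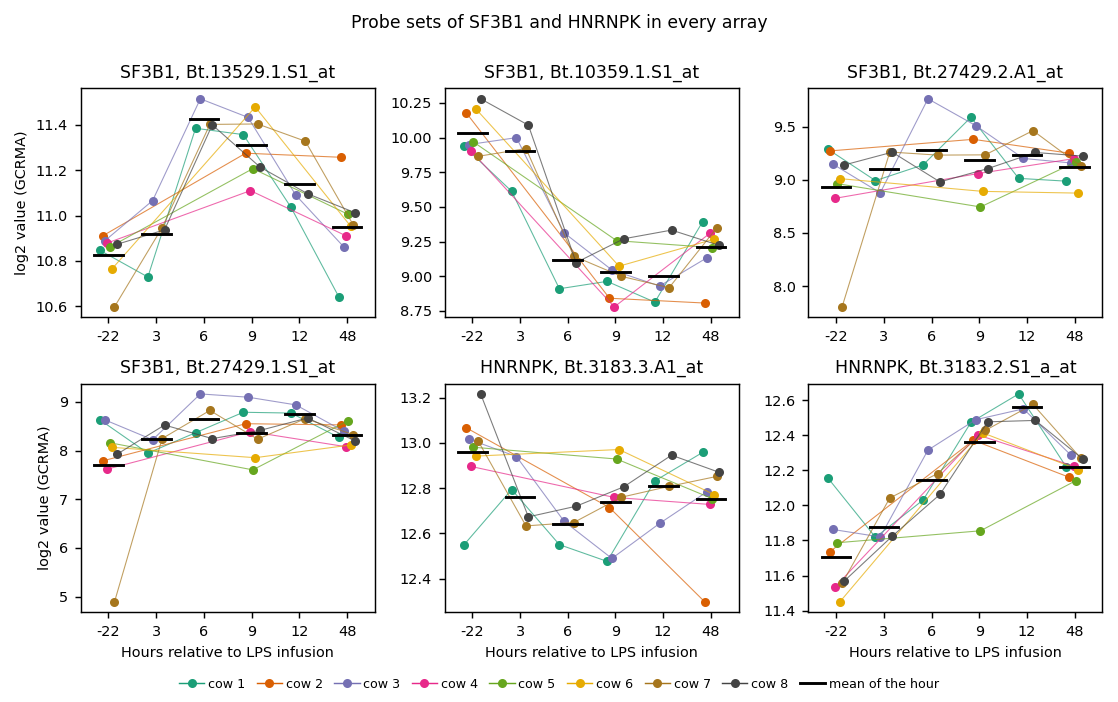
Log2 level (y axis) of each of the 4 probe sets of SF3B1 and the 2 of HNRNPK in every array, by hours relative to LPS infusion (x axis). Points are single cows joined by thin lines, black bars the mean of the hour, and the scale differs between panels. The second brightest probe set of SF3B1 (mean level 9.40) is lower at 6, 9, 12 and 48 h in every cow measured, while its brightest (11.07) is higher at 9 h in 8 of 8 cows.

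In the SRSF family, 11 of 14 probe sets were higher at 9 h and none lower (32.0% and 22.6% of all probe sets). At 12 h 7 were higher and 1 lower (22.2% and 18.9% of all). SRSF3, a short SR protein that also takes part in mRNA export, gave the smallest adjusted p of the members named here. It lay between 11.36 and 11.84 at -22 h (median 11.56) and between 13.35 and 13.60 at 9 h (median 13.46), with a change of 1.86 (SE 0.07, adjusted p 1.18e-20, limma). At 48 h it had fallen below its starting level, between 10.85 and 11.35, again without overlap (-0.51, SE 0.07, 0 of 8 cows higher). SRSF7, its close relative, changed by 1.63 (SE 0.10) at 9 h and -0.52 (SE 0.10) at 48 h. SRSF6, a larger SR protein, was not called at 6 h (-0.15), rose from 6 to 9 h (1.16, SE 0.15) and stood at 1.01 at 9 h and at -0.83 at 48 h, where its 8 arrays (8.12 to 9.04) lay below all -22 h arrays (9.19 to 9.75). These 48 h falls remained called without the 2 arrays that stood apart, at -0.51, -0.56 and -0.76.

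SRSF1, the first SR protein described and a general enhancer of splicing, had the largest SRSF change, and it was still called at 48 h. Its brightest probe set lay between 7.34 and 9.39 at -22 h (median 8.02), a wide range in which cows 1 and 3 stood highest at 9.39 and 9.17. At 12 h the 4 cows stood at 10.91, 10.92, 10.24 and 10.35, and the change was 2.41 (SE 0.27, adjusted p 5.03e-09, limma). At 48 h it was still 1.06 (SE 0.22, higher in 7 of 8 cows), and 1.20 without the 2 arrays that stood apart. The second probe set of the same unit gave 2.08 at 12 h and 1.28 at 48 h, and the dimmest 0.48 and 0.10, the latter not called.

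SRSF10, a splicing repressor known from heat shock, was high at 6 and 9 h. It stood at 11.39, 11.42, 11.34 and 11.41 at 6 h, all above the -22 h range of 9.85 to 10.23 (1.33, SE 0.10), and at 9.92, 10.50, 10.51 and 10.11 at 12 h, where it was not called (0.20, adjusted p 0.122). The fall from 9 to 12 h was DE (-1.01, SE 0.10). SRSF5 was the 1 member called lower at 3 h: it stood at 10.32, 10.90, 10.33 and 10.53, below all 8 arrays of -22 h (10.96 to 11.64), with a change of -0.70 (SE 0.19, adjusted p 0.0224), and the call was lost without cow 7 or 8 and with the cow as a block. The 3 members called higher at 3 h were HNRNPF (0.36), SNRPB (0.32) and SRSF3 (0.31), each in 4 of 4 cows. SRSF4 changed by -0.32 (SE 0.09) at 6 h and -0.25 (SE 0.09) at 12 h but 0.24 at 9 h, and its 12 h call was lost with the cow as a block (-0.21) and without cow 4, 6, 7 or 8. SRSF11 was higher at 6 h in its brightest probe set (0.34, SE 0.09) and lower in a dim one (-0.84, SE 0.28) with a mean level of 4.21.

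**Figure D5:**
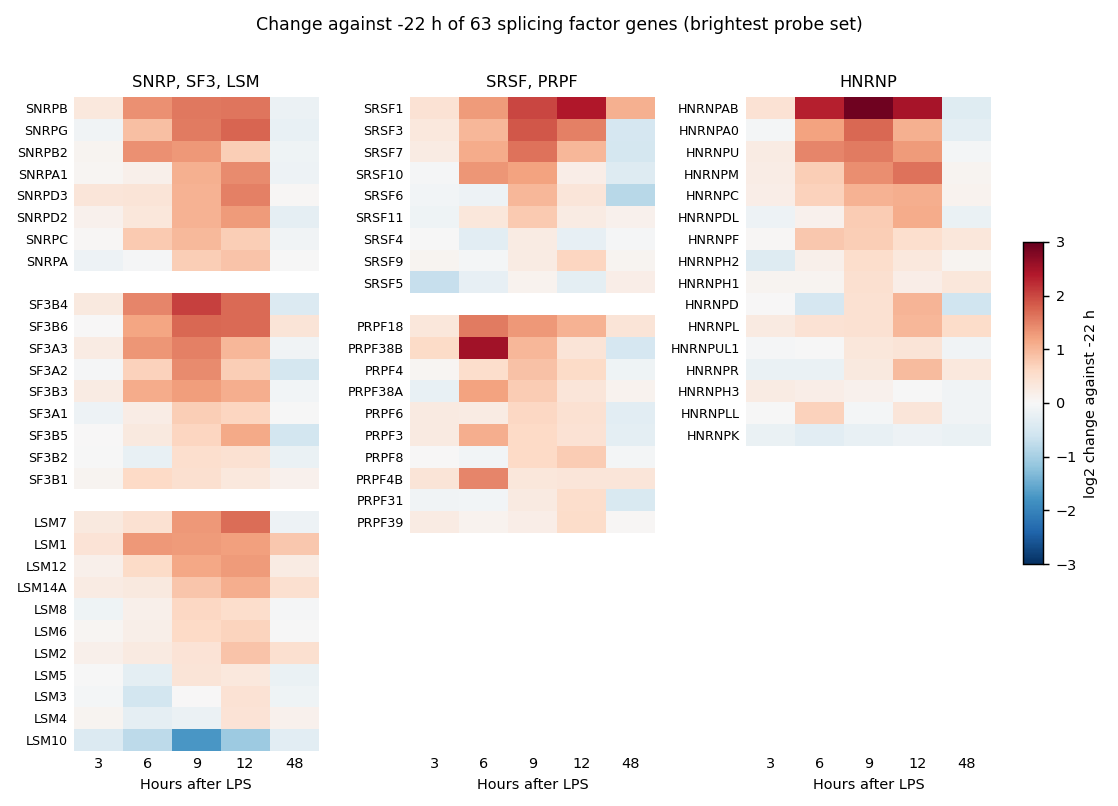
Log2 change against -22 h (colour, from -3 in blue to 3 in red) of the 63 genes at 3, 6, 9, 12 and 48 h after LPS, each read through its brightest probe set and sorted within its family by the change at 9 h. HNRNPAB is the deepest red at 9 h with 2.92, PRPF38B at 6 h with 2.51, and LSM10 the deepest blue with -1.74.

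The hnRNP genes were the largest family, with 21 of 27 probe sets higher and 1 lower at 9 h. At 12 h 18 were higher and none lower. The shares of all probe sets were 32.0% and 22.6% at 9 h, and 22.2% and 18.9% at 12 h. HNRNPAB, an RNA-binding protein of the A and B group, had the largest change of any member at 9 h. Its level ran from 9.56 to 10.80 at -22 h (median 9.89), with cow 1 highest, and from 12.80 to 13.10 at 9 h (median 12.90). Thus all 8 cows reached nearly the same level at 9 h, with a change of 2.92 (SE 0.14, adjusted p 5.01e-18, limma). It had risen by 1.91 (SE 0.20) between 3 and 6 h, and fell by 2.84 (SE 0.17) between 12 and 48 h. At 48 h it was slightly below its start (-0.37, SE 0.14, higher in 1 of 8 cows), and the 1 cow above was cow 2, whose array stood apart.

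HNRNPU, a scaffold protein of the nucleus, changed by 1.48 at 6 h and 1.57 (SE 0.11) at 9 h, and HNRNPM, which binds GU-rich RNA, by 1.39 at 9 h and 1.64 (SE 0.10) at 12 h. HNRNPC, which binds uridine tracts of nascent RNA, changed by 0.68, 1.03 and 1.10 at 6, 9 and 12 h. HNRNPF, a reader of G tracts, was highest at 6 h in both probe sets, at 0.81 and 1.14, and lay at 0.34 and 0.19 at 48 h, both called. Without the 2 arrays that stood apart the brighter probe set of HNRNPF was at 0.27 at 48 h and no longer called, while the other remained called. The 3 probe sets of HNRNPA0, which binds AU-rich messages, changed by 1.72, 1.30 and 2.44 at 9 h, but by -0.29, -0.65 and 0.83 at 48 h, all called. The dimmest of these had the widest range at -22 h, from 3.83 to 6.45.

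HNRNPD and HNRNPR were highest at 12 h. HNRNPD, known as a factor of AU-rich mRNA decay, stood at 10.03, 9.69, 9.86 and 9.93 at 6 h, below all -22 h arrays (10.07 to 10.55), and at 11.35, 11.40, 11.21 and 11.62 at 12 h, above all of them. Its changes were -0.50 (SE 0.15, adjusted p 0.00687, limma), 0.45 at 9 h and 1.02 (SE 0.15) at 12 h, and -0.60 (SE 0.12) at 48 h. Without cow 3 the 6 h change was -0.44 and no longer called. HNRNPR had -0.21 (SE 0.08) at 6 h, a call lost with the cow as a block (-0.19) and in 6 of 8 fits that leave out a cow, and rose from 9 to 12 h by 0.67 (SE 0.08) to 0.96 above -22 h. HNRNPDL, a relative of HNRNPD, differed between its probe sets: the brighter changed by 0.76 and 1.11 at 9 and 12 h, and the other by -0.41 at 6 h, by -0.13 and 0.21 at 9 and 12 h, not called, and by -0.97 (SE 0.12) at 48 h, with 8.03 to 8.88 against 9.37 to 9.81 at -22 h.

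HNRNPK, a poly(C)-binding protein, had 2 probe sets of high level that were called in opposite directions at 6 and 9 h. The one with a mean level of 12.13 changed by 0.44 and 0.66 (SE 0.08 at 9 h, 8 of 8 cows), by 0.85 at 12 h and by 0.51 at 48 h. The brighter, with a mean level of 12.79, changed by -0.32 and -0.22 (SE 0.08, adjusted p 0.0283, higher in 1 of 8 cows), and its arrays at -22 h (12.55 to 13.22) and 9 h (12.48 to 12.97) overlapped. The 6 h fall was not called without cow 7, nor the 9 h fall without cow 3, 7 or 8. The mean over both gave 0.062 and 0.22, so the sign for the gene depends on the probe set.

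In the PRPF family, 8 of 16 probe sets were higher at 6 h, 12 at 9 h and 10 at 12 h. For all probe sets the shares were 23.3%, 32.0% and 22.2%. None of the family was lower at these hours (22.0%, 22.6% and 18.9% of all). In 7 of its 16 probe sets the largest change fell at 6 h, as in 24 of all 93 members and 28.8% of all probe sets. PRPF38B, a protein of the activating spliceosome, stood at 10.77, 10.61, 10.97 and 10.51 at 6 h, where the -22 h arrays ranged from 7.12 to 9.03 (median 8.35). The change was 2.51 (SE 0.25, adjusted p 7.34e-10, limma), and the other probe set gave 2.62 (SE 0.17). By 9 h the first was at 0.99 and the second at 1.36, a DE fall of -1.26 (SE 0.17) from 6 to 9 h in the latter. PRPF4B, a kinase of tri-snRNP proteins, had levels of 9.39, 9.33, 9.67 and 9.58 at 6 h against 7.68 to 8.33 at -22 h. It changed by 1.46 (SE 0.15) at 6 h and by 0.35 (SE 0.12) at 9 h, and its fall from 6 to 9 h was DE (-1.11, SE 0.15).

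PRPF18, of the second catalytic step, changed by 1.56 (SE 0.26) at 6 h, PRPF38A by 1.20 (SE 0.19) and PRPF3, of the tri-snRNP, by 1.10 (SE 0.11). PRPF8, the protein at the heart of the spliceosome, was later. Its bright probe set stood at 11.07, 10.64, 11.03 and 11.10 at 6 h, within the -22 h range of 10.77 to 11.40 but for cow 3, and then rose from 6 to 9 h (0.66, SE 0.08) to a change of 0.77 (SE 0.08, adjusted p 2.92e-09) at 12 h. A dim probe set of PRPF8 with a mean level of 3.39 lay between 3.20 and 3.39 at 9 h and stood at 5.09, 4.84, 3.39 and 5.03 at 12 h. PRPF31, also of the tri-snRNP, changed by 0.52 and 1.06 at 12 h in its 2 probe sets. Both probe sets of PRPF39 were called at no hour, with 0.55 and 0.33 at 12 h.

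Among the LSM proteins, 6 of 13 probe sets were higher and 3 lower at 6 h (23.3% and 22.0% of all probe sets). At 9 h 9 were higher and 1 lower (32.0% and 22.6%), and at 12 h 11 and 1 (22.2% and 18.9%). In 7 of the 13 the largest change fell at 12 h, as in 6 of 9 SNRP and 36 of all 93 probe sets, while 23.1% of all probe sets had theirs there. LSM7, a ring protein of the U6 snRNP, changed by 0.47, 1.30 and 1.67 (SE 0.13, adjusted p 2.04e-12 at 12 h, limma) at 6, 9 and 12 h. LSM1, which replaces LSM8 in the cytoplasmic ring of mRNA decay, changed by 1.30 (SE 0.16) at 6 h and was still at 0.82 (SE 0.13) at 48 h, where its 8 arrays (7.57 to 8.36) lay above all of -22 h (6.57 to 7.53). LSM14A, a protein of cytoplasmic RNA granules, also stayed up, with 0.82 and 0.94 at 9 h and 0.47 and 0.80 at 48 h in its 2 probe sets. LSM12 changed by 1.16 at 9 h and 1.27 (SE 0.16) at 12 h.

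The 3 LSM members lower at 6 h (23.1% of the 13, beside 22.0% of all probe sets) were ring proteins of the U6 snRNP. They were higher at 12 h, as were 22.2% of all probe sets. LSM3 stood at 8.74, 8.63, 9.04 and 9.07 at 6 h, below all -22 h arrays (9.11 to 9.91), and at 9.72, 9.86, 9.86 and 9.92 at 12 h, with changes of -0.55 (SE 0.13, adjusted p 0.000975) and 0.42 (SE 0.13). LSM4 had -0.28 and 0.41 (SE 0.10 each), and LSM5 -0.29 and 0.32 (SE 0.12 each) in its bright probe set. The 6 h calls of LSM4 and LSM5 were lost without cow 1, 3, 7 or 8, and that of LSM5 also without cow 2 or 6. The dim probe set of LSM5 (mean level 2.32) was called higher at 6 h, by 0.21.

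LSM10 was the 1 LSM member lower at 9 and at 12 h. This protein belongs to the U7 snRNP, which cuts the 3' end of histone mRNAs and is no part of the spliceosome. Its level was 7.48 at the lowest, 8.45 at the median and 8.89 at the highest at -22 h, and 5.54, 6.52 and 8.25 at 9 h. It was lower in 8 of 8 cows (-1.74, SE 0.32, adjusted p 1.86e-05, limma), although the ranges overlapped, since cow 1 went only from 8.27 to 8.25 while cow 4 went from 8.74 to 5.55. At 12 h the 4 cows stood at 8.11, 6.72, 7.56 and 6.58 (-1.10, SE 0.39, adjusted p 0.0211), a call lost without cow 3 (-0.92) or cow 8 (-0.86). At 48 h it lay between 7.59 and 8.44, within the range of -22 h.

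At 48 h single members lay on both sides of their start. Higher were SRSF1, LSM1, LSM14A, HNRNPK by its dimmer probe set (0.51), HNRNPH1 (0.34) and HNRNPR (0.32) among others, and lower were SRSF3, SRSF6, SRSF7, SRSF10 (-0.38), SF3B5 (-0.54), SF3A2 (-0.52) and HNRNPD among others. Of the 19 members called higher 15 remained without the 2 arrays that stood apart, where 7.29% of all probe sets were higher. Of the 18 called lower 16 remained in that fit, with 3 more called lower, beside 10.2% of all probe sets. Without cow 2 only 10 members were called higher. HNRNPU at 48 h stood at 11.14 in cow 2 and between 9.97 and 10.33 in the other cows. Centring each array on its brighter probe sets moved all changes at 48 h by 0.13 and turned the counts to 35 higher and 11 lower, so the balance of rises and falls at that hour depends on the scaling. Shares of all probe sets without cow 2 or after centring are not given here. The counts therefore do not show whether the members stood apart from all probe sets in those fits.

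Other genes of the pathway were also mostly higher at 9 h. Of 98 probe sets for other spliceosome proteins 70 were higher and 7 lower at 9 h, of 63 for other splicing regulators 40 and 6, of 38 for snRNP assembly and snRNA factors 31 and 1, of 32 for the exon junction and mRNA export 28 and 0, and of 26 for mRNA 3' end processing 20 and 2. Their medians at 9 h were 0.57, 0.34, 1.06, 0.97 and 0.96. For all probe sets the shares at 9 h were 32.0% higher and 22.6% lower, with a median of 0.03. With a mean level of at least 5, 40.4% of all were higher and 38.8% lower. WDR77, a partner of the methyltransferase PRMT5 that modifies Sm proteins, rose by 3.13 (SE 0.18) at 12 h. SMN2 is annotated as the survival of motor neuron gene that loads the Sm ring. It rose by 2.72 (SE 0.20) at 9 h in its brightest probe set (1.05 as the mean over all 6). TGS1, which acts on the cap of snRNAs, rose by 2.43 (SE 0.19) at 6 h. DDX39A, a helicase of mRNA export, had the largest change in these lists, 4.54 (SE 0.37) at 6 h. TXNL4B, a relative of a tri-snRNP protein, rose by 3.02 (SE 0.31) at 6 h, and PTBP1, a repressor of exons, by 2.83 (SE 0.24) at 12 h. Among those that fell was SRPK2, a kinase of SR proteins, at -2.40 (SE 0.15, 0 of 8 cows higher) at 9 h.

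Rises at 9 h were also frequent in gene groups outside splicing. RNA polymerase subunits, Mediator and general transcription factors had 71 of 113 probe sets higher and 13 lower (median 0.49), and cytosolic ribosomal proteins had 71 of 94 higher and 8 lower (median 0.40). These stand beside 72 of 93 and a median of 0.65 for the splicing factors, and no test of the difference was made. Over the whole array, 32.0% of probe sets rose and 22.6% fell by the same threshold, with a median change of 0.03. With a mean level of at least 5, the array's shares were 40.4% and 38.8%.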

How the data were processed

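Liver RNA of 8 cows was hybridised by the authors to 36 Affymetrix Bovine Genome Arrays. The deposited values are log2 levels, which the authors made with GCRMA (background correction, quantile normalization and summary of each probe set). Its version is not given in the sources used here, so only the deposited table was used, and the number of arrays limits the precision. GCRMA makes the distributions of the arrays alike, so a shift shared by all genes cannot be seen.

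Probe sets were named from the platform annotation, with gene IDs checked against RefSeq, which left the 93 members unchanged. A pair of probe sets that name SNRPF and a further gene were left out. Of the members, 82 had a mean level of at least 5, and no filter was applied. A gene was read through its brightest probe set, and counts are over probe sets.

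With limma 3.58.1 (R 4.3.3; tables in Python 3.11.15, figures in matplotlib 3.10.9), 1 mean per hour was fitted over all arrays and 24128 probe sets, with moderated variances. Each hour was tested against -22 h (Benjamini-Hochberg, 0.05) and successive hours against each other (Bonferroni, 0.01). All tests are two-sided. The scripts were tested on simulated data. Arrays of the same cow deviated together: the mean correlation of deviations over probe sets was 0.289 between -22 and 9 h, and the lowest for a single cow between -22 and 48 h was 0.116. The numbers in the labels mark the cows, so fits with the cow as a block were alternatives, beside leaving out cows or arrays, array weights, median centring over brighter probe sets, other thresholds and other choices of probe set.

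In each family the rule for genes to name took up to 4 with the largest change called and of 1 sign in all cows, the gene with the highest level, genes with probe sets called in opposite directions, and up to 3 called against most of their family. From each list it took up to 3 by size. SRSF5, SRSF6, HNRNPDL, SNRPB2, SNRPA, HNRNPC and further members outside this rule were picked with their values in view. The members and lists were chosen with earlier results of these data known. Promoter, protein and genome sequences were not used here.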

Additional observations from a re-analysis of the deposited data

Results flagged for a closer look

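Of 222 groups of 4 or 8 arrays, 15 held an array far from the others of its hour (6.76%), and chance alone gives about 1 in 20 groups. At 48 h cow 2, whose array stood apart as a whole, accounted for 5 of them. Its level was 9.06 for HNRNPD (others 9.62 to 10.1), 12.3 for HNRNPK (others 12.7 to 13.0), 11.1 for HNRNPU (others 9.97 to 10.3), 7.96 for LSM7 (others 7.24 to 7.49) and 10.1 for SRSF10 (others 9.46 to 9.73). Also at 48 h, cow 8 stood at 8.16 for HNRNPA0 (others 7.93 to 8.01).

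At 3 h, cow 3 stood high at 10.8 for HNRNPU, cow 7 high at 10.4 for LSM4 and cow 8 low at 7.80 for SF3A3 (others 8.14 to 8.20). At 6 h, cow 3 stood low at 11.6 for HNRNPM and at 10.6 for PRPF8 and high at 11.5 for SF3B1, and cow 8 high at 8.30 for LSM7. At 9 h, cow 3 stood low at 13.2 for HNRNPF (others 13.7 to 13.8). At -22 h, cow 7 stood low at 10.6 for the brightest probe set of SF3B1 (others 10.8 to 10.9).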

How the results depend on the processing

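With the cow as a replicate block, the paired fits kept every direction; the fixed block gave 0 falls at 3 h against 1 and ended the falls of HNRNPR at 6 h (-0.19) and SRSF4 at 12 h (-0.21), and changed no other call of a named gene. With the 4 cows measured at all hours, the counts were 0 higher and 0 lower at 3 h, 1 lower at 12 h, 4 higher at 48 h and 27 DE. Without the 2 arrays that stood apart they were 18 higher and 2 lower at 3 h, and with array weights 19 and 4. Without the -22 h array of cow 7, a setting chosen after seeing the data, all counts stayed within 1.5 times and no call of a named gene changed. Median centring gave 2 lower at 3 h, 7 lower at 6 h, and 35 higher and 11 lower at 48 h, with a median change of 0.13. A Bonferroni threshold of 0.05 left 0 and 0 at 3 h, 31 higher and 1 lower at 6 h, 1 lower at 9 h, 41 higher and 1 lower at 12 h, and 5 higher and 6 lower at 48 h. Benjamini-Hochberg at 0.01 gave 73 DE, and 1 probe set per gene 9 higher at 48 h. Leaving out 1 cow gave 1 to 6 higher and 0 to 1 lower at 3 h, 6 to 10 lower at 6 h, 1 to 3 lower at 12 h, and 10 (without cow 2) to 18 higher at 48 h. The mean over the probe sets of a gene turned SRSF11 at 6 h to -0.17 and HNRNPK at 6 and 9 h to 0.062 and 0.22. The cause of these differences was not tested. Except for the fit without the 2 arrays that stood apart, shares of all probe sets under these settings are not given here. The counts therefore do not show whether the members stood above all probe sets under each setting. For dim probe sets, with mean levels below 5 (11 members), a small change is close to background.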

Other observations

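Of the 93 probe sets, 6 were called at no hour by limma against -22 h: a dim one of SF3A2 and 1 each of SF3B1, SRSF4 and HNRNPUL1, all of genes that had another probe set called, and both of PRPF39, a U1 snRNP protein. HNRNPLL, an hnRNP known from T cells, had its largest changes at 6 h in its 3 probe sets (0.69, 1.10 and 1.13), and HNRNPL, a reader of CA repeats, at 12 h in the 2 that were brighter (0.99 and 1.82). HNRNPH3, a relative of HNRNPF, stood at 0.25 at 3 h, where its 4 arrays lay above all -22 h arrays without being called, and at 0.21 at 6 h.

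The proteins of the tri-snRNP differed in the hour of their largest change: PRPF3 changed by 1.10 at 6 h, PRPF4 by 0.88 and PRPF6 by 0.62 at 9 h, and PRPF31 by 0.52 and 1.06 at 12 h. The U6 ring proteins LSM6 and LSM8 changed by 0.59 and 0.61 at 9 h and by 0.68 and 0.53 at 12 h, each in all cows measured. LSM2, also of this ring, was called higher at 9, 12 and 48 h without the 2 arrays that stood apart. Its changes in that fit were 0.52, 0.96 and 0.61.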
